A study of Mus musculus with 24 samples.

Results

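Mature neurons that carry a slow form of RNA polymerase II were compared with WT neurons at the level of genes and of single exons. The comparison rests on 6 of the 24 RNA-seq libraries of the study, namely 3 from slow/slow and 3 from WT neurons, taken by their genotype and cell labels. It covers 15097 of the 16627 genes that could be tested and 22021 of the 54141 exon events that were listed. Genes on chromosomes 8, 15 and Y were set aside. In neurons the median log2 change was 0.44 over the tested genes of chromosome 8, against -0.14 to -0.02 on the 18 chromosomes that were kept. Chromosome 15, with a median of -0.08, lay inside that range, and chromosome Y had 5 tested genes.

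Slow/slow cells are homozygous for the R749H substitution in Polr2a, the gene of the largest polymerase subunit, and were made by targeting E14 mouse embryonic stem cells (ESCs), whereas WT cells (wt/wt) carry the normal allele. How many clones the slow/slow line stands for is not stated. For both genotypes, ESCs were grown as a monolayer for 7 days to make neural progenitor cells (NPCs). These were then replated onto poly-l-ornithine and laminin and kept for 14 further days in N2B27 medium with ascorbic acid and cAMP. The first plating differed by genotype, with 10000 WT and 30000 slow/slow cells per cm2, so genotype and plating density cannot be told apart in any difference given here. Each replicate was an independent differentiation experiment.

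Elongating polymerase moves along a gene while splicing factors act on the RNA that has just emerged. A change of speed can alter how long a splice site waits before a competing site appears, which is called kinetic coupling. Neurons depend on long genes for synapse and adhesion proteins, and they include many microexons, very short exons that add a few amino acids to a protein and are under the control of neural splicing factors.

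The 6 neuron libraries held between 32974432 and 104466886 counted reads. Levels are given as CPM, the counts scaled to a common library size, one value for each of the 3 samples of a genotype. A gene was called where edgeR's quasi-likelihood test over all 24 libraries gave a Benjamini-Hochberg FDR under 0.05, and "2-fold" adds a log2 change of at least 1 in size. Log2 changes are slow/slow over WT and are followed by their SE. Of the 15097 genes, 51.3% were called, with 21.8% upregulated and 29.6% downregulated, and 20.3% were called at 2-fold (10.7% up and 9.59% down). A list whose counts are near these shares is not a result about its members. The samples of both genotypes did not overlap for 31.7% of genes in the upward and 43.5% in the downward direction. Changes were centred differently under another scaling: upper-quartile scaling moved the median of all genes from -0.06 to 0.08, and the share of upregulated genes among all calls from 45.2% to 59.2%, while a fit of the neurons alone gave 50.6%. The median log2 change over the 15097 genes was -0.08, and the median of each gene list below is read against it.

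The programmes were described by 40 lists of genes. Of their 1238 entries, 103 lay on the chromosomes set aside, 20 were below the filter on low counts, 3 were not found by name and 1112 were tested. Counting each gene once, 330 of 1079 genes were upregulated and 392 downregulated. The plot of called shares by list shows the direction of each programme.

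**Figure D1:**
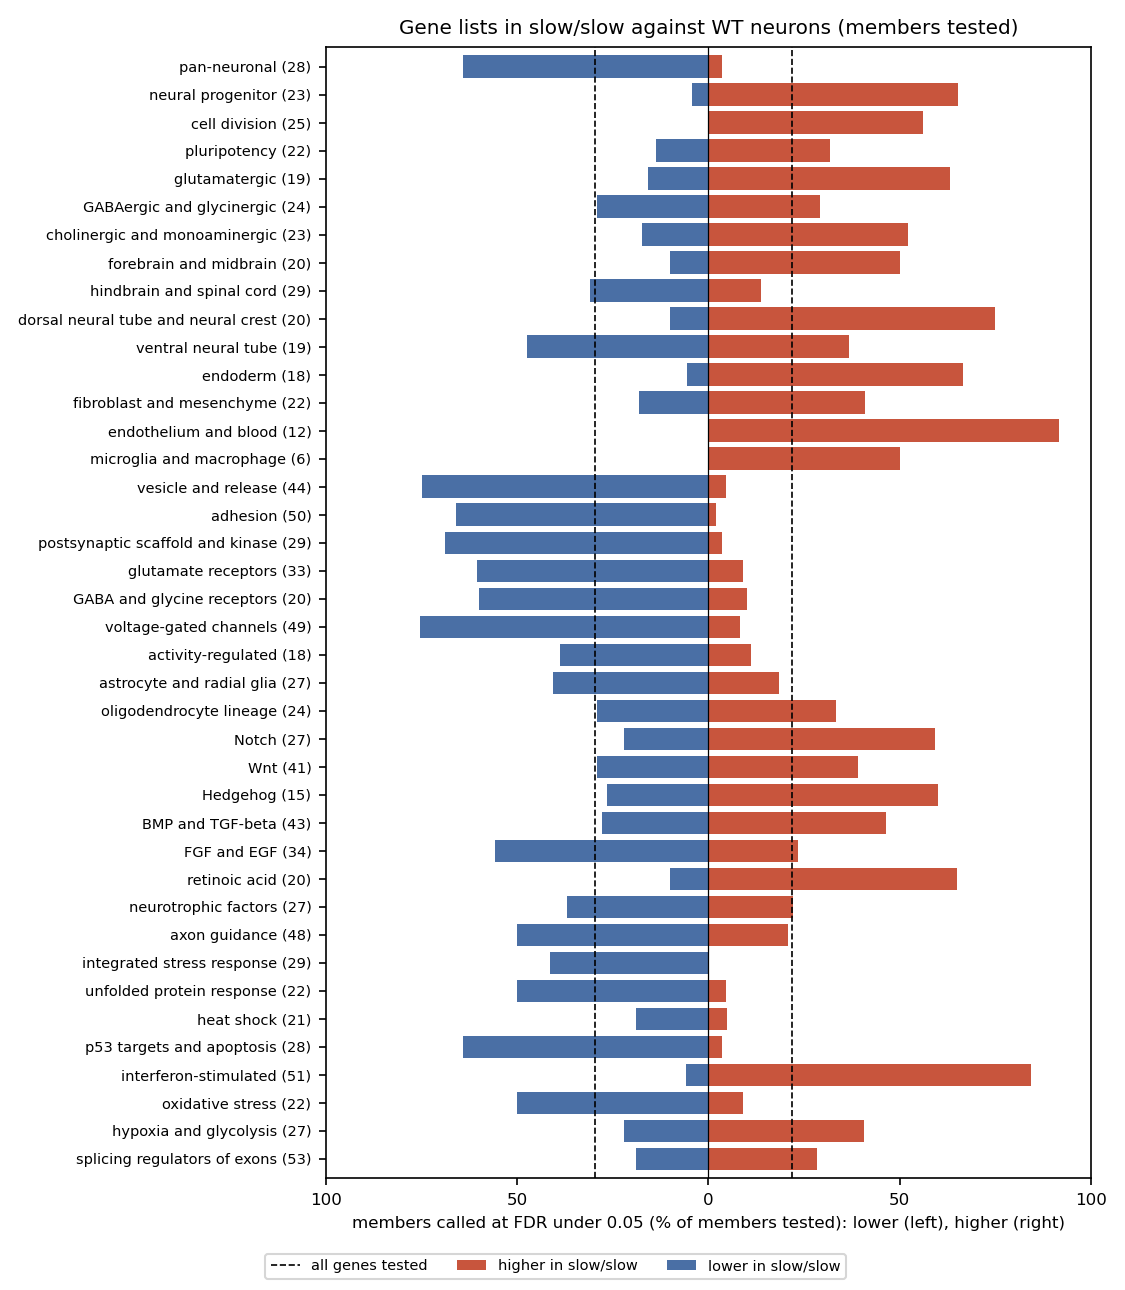
Share of the tested genes of each list that were upregulated (bars to the right) or downregulated (bars to the left) in slow/slow neurons, in percent of the list. Interferon-stimulated genes (43 of 51) and endothelial genes (11 of 12) lay mostly on the upregulated side, and vesicle genes (33 of 44) and voltage-gated channels (37 of 49) mostly on the downregulated side.

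General neuronal genes were downregulated in slow/slow neurons. Of 28 tested members of the pan-neuronal list, 18 fell and 1 rose, 11 of the falls were at least 2-fold, and the median log2 change was -0.91. The summed level of the list was 10248 to 11144 CPM in WT and 6796 to 7130.4 CPM in slow/slow samples. In bulk RNA, fewer neurons and less of these transcripts per neuron cannot be told apart. Nefh, the heavy neurofilament chain of large axons, was at 20.5, 18.2 and 18.1 CPM in the WT and 3.99, 3.82 and 3.40 CPM in the slow/slow samples (log2 change of -2.34 ± 0.36, FDR = 2.01e-05). Scg2, a secretogranin of dense-core vesicles, stood at 220.0, 194 and 197 CPM in the WT and 44.3, 51.5 and 47.6 CPM in the slow/slow samples (log2 change of -2.09 ± 0.62, FDR = 0.00792). Chga, a granin of the same vesicles, measured 117, 106 and 103.5 CPM in the WT and 30.8, 33.8 and 31.9 CPM in the slow/slow samples (log2 change of -1.76 ± 0.20, FDR = 3.67e-07). For all of them the highest slow/slow sample was below the lowest WT sample. The single rise was in the medium neurofilament chain, whose samples did not overlap either. Nefm had 44.5, 55.1 and 63.5 CPM in the WT and 137, 148 and 132 CPM in the slow/slow samples (log2 change of 1.35 ± 0.33, FDR = 0.00167). Map2, the dendritic microtubule protein listed as Mtap2, did not pass the test, with 666 CPM on average in WT and 572 CPM in slow/slow samples (log2 change of -0.22 ± 0.22, FDR = 0.424). The same list moved the other way in NPCs, where 20 members were upregulated and 3 downregulated, against a background of 28.6% of genes up and 26.8% down. The test of the difference in genotype effect between neurons and NPCs called 23 of the 28 members lower and 1 higher in neurons, against 31.2% lower and 23.8% higher over all genes.

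Progenitor genes were upregulated in the same samples. In the neural progenitor list 15 of 23 members rose and 1 fell, with a median of 0.60. The proneural bHLH factors, which start neuronal differentiation in dividing precursors, had the largest rises. Neurog1 was at 1.03, 1.17 and 1.66 CPM in the WT and 28.6, 41.8 and 42.1 CPM in the slow/slow samples (log2 change of 4.85 ± 0.45, FDR = 3.33e-08). Neurog2 stood at 1.93, 3.34 and 3.63 CPM in the WT and 39.5, 51.3 and 54.05 CPM in the slow/slow samples (log2 change of 4.02 ± 0.33, FDR = 5.41e-09). Neurog3 measured 0.138, 0.257 and 0.270 CPM in the WT and 2.58, 3.83 and 3.43 CPM in the slow/slow samples (log2 change of 3.86 ± 0.50, FDR = 2.21e-06). Each of the 3 was higher in every slow/slow sample than in any WT sample. Sox2, the progenitor factor, had 103, 119 and 126 CPM in the WT and 164, 186 and 178 CPM in the slow/slow samples (log2 change of 0.60 ± 0.09, FDR = 2.19e-05). The one fall was that of Lin28a, an RNA-binding protein of early progenitors that blocks let-7 maturation. Lin28a was at 198, 250.3 and 238 CPM in the WT and 123, 92.9 and 83.1 CPM in the slow/slow samples (log2 change of -1.20 ± 0.25, FDR = 0.000547). Genes of cell division were expressed in cultures of both genotypes, although the samples are labelled as mature neurons. They had 14 of 25 members upregulated, none downregulated and a median of 0.49, and only 1 reached 2-fold. That member was Mki67, the proliferation antigen. Mki67 stood at 60.8, 78.01 and 76 CPM in the WT and 174, 154 and 136 CPM in the slow/slow samples (log2 change of 1.11 ± 0.17, FDR = 1.34e-05). Ccnb1, the mitotic cyclin B1, measured 85.6, 112 and 103 CPM in the WT and 144, 145 and 144 CPM in the slow/slow samples (log2 change of 0.53 ± 0.15, FDR = 0.00697). Neither gene had a slow/slow sample within the WT range. The count of cell division genes rested in part on single libraries, and it was 8 without WT replicate 1 and 9 without slow/slow replicate 1. Pluripotency genes showed no common direction, with 7 of 22 up and 3 down.

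Genes of transmitter identity moved in both directions. In the glutamatergic list 12 of 19 members rose and 3 fell (median 0.80), and the risers were led by transcription factors. Neurod1, a bHLH factor of excitatory neurons, had 1.93, 2.60 and 2.40 CPM in the WT and 11.9, 15.5 and 13.6 CPM in the slow/slow samples (log2 change of 2.56 ± 0.24, FDR = 3.51e-08). Barhl1, a homeobox factor of dorsal excitatory neurons, was at 0.230, 0.144 and 0.202 CPM in the WT and 1.76, 1.31 and 1.21 CPM in the slow/slow samples (log2 change of 2.87 ± 0.38, FDR = 2.72e-06). Slc17a8, the vesicular glutamate transporter VGLUT3, stood at 27.4, 26.1 and 26.3 CPM in the WT and 6.36, 8.74 and 7.24 CPM in the slow/slow samples (log2 change of -1.83 ± 0.17, FDR = 2.28e-08). Slc17a8 thus moved against most of the called members of its list, while Slc17a6, which encodes VGLUT2 and was the most abundant of the 3 transporters in the slow/slow samples, did not pass the test (0.38 ± 0.22, FDR = 0.155). The GABAergic and glycinergic list was split, with 7 of 24 up and 7 down. Gad1, a GABA-synthesising enzyme, measured 67.8, 61.4 and 58.5 CPM in the WT and 15.1, 15.98 and 14.8 CPM in the slow/slow samples (log2 change of -2.03 ± 0.36, FDR = 0.000103). Slc32a1, the vesicular transporter that loads GABA and glycine, had 5.25, 5.12 and 4.92 CPM in the WT and 16.3, 21.7 and 22.5 CPM in the slow/slow samples (log2 change of 1.98 ± 0.30, FDR = 1.43e-05). Pax8, a factor of spinal and hindbrain inhibitory interneurons, was at 1.76, 1.35 and 1.37 CPM in the WT and 23.01, 27.7 and 22.2 CPM in the slow/slow samples (log2 change of 4.02 ± 0.44, FDR = 2.69e-07). The enzyme was lower, and the transporter and the factor were higher, in every slow/slow sample. Npy and Ptf1a, a neuropeptide and a factor that specifies inhibitory neurons, were upregulated by 4.18 ± 0.34, FDR = 5.24e-09 and by 5.0 ± 0.46, FDR = 3.36e-08 on the log2 scale. Dlx1 and Dlx5, homeobox factors of forebrain inhibitory neurons, were downregulated, at -1.50 ± 0.28, FDR = 0.000133 and at -2.13 ± 0.30, FDR = 6.41e-06. Dlx1 and Dlx5 thus fell while Pax8 and Ptf1a rose. In the cholinergic and monoaminergic list 12 of 23 rose and 4 fell (2 without slow/slow replicate 1). Th, the rate-limiting enzyme of dopamine synthesis, stood at 0.476, 0.562 and 0.520 CPM in the WT and 8.21, 9.58 and 8.003 CPM in the slow/slow samples (log2 change of 4.05 ± 0.44, FDR = 2.66e-07). Mnx1, a homeobox factor of motor neurons, measured 5.02, 5.09 and 5.35 CPM in the WT and 0.983, 0.784 and 1.15 CPM in the slow/slow samples (log2 change of -2.42 ± 0.25, FDR = 1.36e-07). Lhx3, a LIM homeobox factor of motor neurons, had 0.261, 0.498 and 0.337 CPM in the WT and 2.37, 2.74 and 2.41 CPM in the slow/slow samples (log2 change of 2.78 ± 0.40, FDR = 9.09e-06). Chat and Slc5a7, which make acetylcholine and take up its precursor choline, were also upregulated, at 1.75 ± 0.41, FDR = 0.00166 and at 2.60 ± 0.52, FDR = 0.000511, from levels below 1 CPM in WT. The samples of the genotypes were apart for each gene given here by its 6 values.

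Genes of the dorsal neural tube were upregulated. In the dorsal neural tube and neural crest list 15 of 20 members were upregulated and 2 downregulated, and the median was 1.06. Pax7, a paired-box factor of the dorsal neural tube, was at 1.07, 0.883 and 1.34 CPM in the WT and 31.1, 40.01 and 33.5 CPM in the slow/slow samples (log2 change of 4.98 ± 0.35, FDR = 9.41e-10). Pax3, its close relative, stood at 3.85, 3.74 and 4.85 CPM in the WT and 76.8, 85.8 and 81.1 CPM in the slow/slow samples (log2 change of 4.29 ± 0.31, FDR = 1.2e-09). Prrxl1, a homeobox factor of dorsal sensory interneurons, measured 1.57, 1.28 and 1.10 CPM in the WT and 9.28, 11.1 and 11.98 CPM in the slow/slow samples (log2 change of 3.04 ± 0.37, FDR = 2.48e-06). The lowest slow/slow sample was above the highest WT sample for each of them. The 2 falls were those of Bmp6 and Msx1, a roof plate signal and a factor induced by it, at -1.45 ± 0.16, FDR = 2.87e-07 and at -1.30 ± 0.27, FDR = 0.000383. The ventral list was divided, with 7 of 19 up, 9 down and a median of -0.12 that turned positive under upper-quartile scaling. Shh, the signal secreted by the floor plate, had 145, 157 and 158 CPM in the WT and 27.4, 28.5 and 30.7 CPM in the slow/slow samples (log2 change of -2.41 ± 0.27, FDR = 4.48e-07). Olig2, the factor of motor neuron and oligodendrocyte progenitors, was at 19.4, 27.5 and 21.5 CPM in the WT and 0.685, 1.06 and 0.904 CPM in the slow/slow samples (log2 change of -4.69 ± 0.44, FDR = 4.12e-08). Both were lower in every slow/slow sample. Dbx1, a homeobox factor of progenitors at the dorsoventral boundary, stood at 2.21, 2.70 and 3.20 CPM in the WT and 44.1, 61.9 and 53.6 CPM in the slow/slow samples (log2 change of 4.30 ± 0.26, FDR = 1.22e-10). Dbx1 was thus higher in every slow/slow than in every WT sample.

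Along the anterior to posterior axis, forebrain and midbrain genes rose in 10 of 20 cases and fell in 2. Otx2, a homeobox factor of the anterior brain, measured 4.36, 4.17 and 3.24 CPM in the WT and 13.5, 13.1 and 13.7 CPM in the slow/slow samples (log2 change of 1.78 ± 0.17, FDR = 6.99e-08). Dmbx1, a homeobox factor of the midbrain, had 0.414, 0.401 and 0.452 CPM in the WT and 4.21, 4.06 and 2.91 CPM in the slow/slow samples (log2 change of 3.13 ± 0.29, FDR = 2.75e-08). Fgf8, the signal of the midbrain to hindbrain boundary, was at 8.84, 9.08 and 8.09 CPM in the WT and 2.22, 1.83 and 2.77 CPM in the slow/slow samples (log2 change of -1.94 ± 0.27, FDR = 7.17e-06). In the hindbrain and spinal cord list 4 of 29 members rose, 9 fell and the median was -0.36. The number of rises was 2 without WT replicate 2, without WT replicate 3 or without slow/slow replicate 1. The falls were led by the caudal genes of the Cdx family, which drive trunk Hox expression. Cdx2 stood at 49.7, 54.5 and 47.99 CPM in the WT and 3.07, 1.93 and 2.96 CPM in the slow/slow samples (log2 change of -4.27 ± 0.19, FDR = 1.96e-12). Cdx4 gave 492 counts over the WT libraries and 1 count over the slow/slow libraries, a CPM ratio of 530.2 with an exact 95% interval for counting error of 69.9 to 15487. The same list held rises too. Hoxa2, the most anterior Hox gene of the hindbrain, measured 19.5, 17.3 and 17.9 CPM in the WT and 77.5, 85.5 and 89.7 CPM in the slow/slow samples (log2 change of 2.21 ± 0.29, FDR = 3.24e-06). No sample of one genotype fell inside the range of the other for Otx2, Dmbx1, Fgf8, Cdx2 or Hoxa2.

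Markers of cells outside the neural lineage were also higher in slow/slow cultures. In the list of endothelium and blood, 11 of 12 tested genes rose and none fell, the median was 2.52, and the summed level was 24.7 to 26.2 CPM in WT and 98.3 to 121 CPM in slow/slow samples. Tie1, an endothelial receptor kinase, had 0.0767, 0 and 0.0770 CPM in the WT and 11.01, 8.23 and 12.3 CPM in the slow/slow samples (log2 change of 7.52 ± 0.43, FDR = 7.2e-11). Cldn5, the claudin of the blood-brain barrier, was at 0.153, 0.273 and 0.144 CPM in the WT and 8.67, 7.27 and 9.81 CPM in the slow/slow samples (log2 change of 5.51 ± 0.44, FDR = 4.56e-09). Pecam1, the endothelial adhesion molecule CD31, stood at 1.41, 1.56 and 1.68 CPM in the WT and 26.1, 21.7 and 25.4 CPM in the slow/slow samples (log2 change of 3.97 ± 0.15, FDR = 2.3e-13). In each case the lowest slow/slow sample stood above the highest WT sample, whereas Hba-a1, a haemoglobin chain, had 1 count over the WT and 0 over the slow/slow libraries. Esm1, a proteoglycan secreted by endothelial cells, was among the 10 largest rises of genes with a mean of at least 5 CPM. Esm1 measured 0.153, 0.0802 and 0.0578 CPM in the WT and 7.80, 5.83 and 9.54 CPM in the slow/slow samples (log2 change of 6.34 ± 0.49, FDR = 2.64e-08). In the endoderm list 12 of 18 rose and 1 fell, with summed levels of 131 to 149.7 CPM in WT and 253 to 279 CPM in slow/slow samples. Afp, the fetal serum protein of yolk sac and liver, had 0.0153, 0.0481 and 0 CPM in the WT and 9.16, 7.83 and 11.8 CPM in the slow/slow samples (log2 change of 8.92 ± 0.78, FDR = 1.52e-08). Apob, the core apolipoprotein of lipoprotein particles, was at 0.200, 0.273 and 0.221 CPM in the WT and 8.56, 4.49 and 6.55 CPM in the slow/slow samples (log2 change of 4.81 ± 0.28, FDR = 8.56e-11). Foxa1, a pioneer factor of endoderm and floor plate, stood at 21.8, 25.4 and 25.2 CPM in the WT and 12.7, 11.99 and 14.2 CPM in the slow/slow samples (log2 change of -0.90 ± 0.19, FDR = 0.000676). Foxa1 therefore moved against Afp and Apob, and its samples did not overlap.

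The fibroblast and mesenchyme list was split, with 9 of 22 up and 4 down. Summed levels were 1527 to 1979 CPM in WT and 1404 to 1517 CPM in slow/slow samples. Igfbp5 alone held 692, 865 and 891 CPM of the WT and 310, 281 and 267 CPM of the slow/slow sums (log2 change of -1.51 ± 0.18, FDR = 8.95e-07). The lower slow/slow sums rest on this 1 gene and do not describe the other members. Lum, a proteoglycan of connective tissue, measured 0.691, 0.722 and 0.780 CPM in the WT and 34.8, 34.5 and 34.04 CPM in the slow/slow samples (log2 change of 5.55 ± 0.41, FDR = 4.74e-09). Col1a1, a chain of type I collagen, had 14.3, 15.1 and 21.5 CPM in the WT and 58.3, 56.7 and 56.7 CPM in the slow/slow samples (log2 change of 1.75 ± 0.29, FDR = 4.61e-05). Pdgfrb, the receptor of pericytes and fibroblasts, was at 6.17, 7.17 and 7.71 CPM in the WT and 42.5, 41.2 and 43.6 CPM in the slow/slow samples (log2 change of 2.59 ± 0.29, FDR = 3.25e-07). Acta2 and Tagln went the other way. Acta2, smooth muscle actin, stood at 43.9, 49.2 and 64.2 CPM in the WT and 12.7, 10.2 and 10.6 CPM in the slow/slow samples (log2 change of -2.23 ± 0.19, FDR = 1.09e-08). Tagln, an actin-binding protein of smooth muscle, measured 83.5, 92.03 and 128 CPM in the WT and 23.5, 24.4 and 23.4 CPM in the slow/slow samples (log2 change of -2.09 ± 0.21, FDR = 1.01e-07). Myl9 and Cnn1, further smooth muscle genes of the list, did not pass the test (-0.42 ± 0.21, FDR = 0.0948, and -0.43 ± 0.32, FDR = 0.278). Every slow/slow sample was above every WT sample for Lum, Col1a1 and Pdgfrb, and below for Acta2 and Tagln. Defining microglial genes were hardly detected: 10 of the 16 members of that list were below the filter, each with at most 26 counts over the WT and at most 23 over the slow/slow libraries. Of the 6 tested, 3 rose and none fell, with summed levels of 4.65 to 5.59 CPM in WT and 11.7 to 12.1 CPM in slow/slow samples. Csf1r, the receptor of macrophage growth factor, had 0.599, 0.738 and 0.885 CPM in the WT and 5.09, 5.23 and 4.69 CPM in the slow/slow samples (log2 change of 2.74 ± 1.05, FDR = 0.0346). When any 1 of the 6 neuron samples was left out, at most 1 member of the list was called. The samples of Csf1r did not overlap, but it was called in only 6 of the 12 alternative analyses. A family that no list held, the placental prolactins, was looked at after its values had been seen. Of its 25 members 15 could be tested, and all 15 were upregulated, with log2 changes of 3.85 to 10.80. Summed levels were 3.50 to 4.17 CPM in WT and 101.2 to 178 CPM in slow/slow samples. The filter on low counts keeps a gene that is expressed in any group, and WT neurons held few counts of these genes. Members could thus pass the filter through the slow/slow neurons in which they were high. The count of rises is therefore no support for a change of the family. Prl2a1 was at 0.691, 0.642 and 0.703 CPM in the WT and 60.5, 43.3 and 31.96 CPM in the slow/slow samples (log2 change of 6.05 ± 0.43, FDR = 9.19e-10). The WT samples of Prl2a1 were all below the slow/slow samples. Reads of these near-identical genes can be shared between them, so the values of single members are uncertain. The part of endothelial, endodermal, mesenchymal and placental transcripts in the other differences was not tested.

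Some of the largest single changes belonged to no list. Slc22a6, an organic anion transporter, stood at 0.0767, 0 and 0.0385 CPM in the WT and 7.48, 6.90 and 7.70 CPM in the slow/slow samples (log2 change of 7.49 ± 0.56, FDR = 8.02e-08). It was near 0 in the WT and clearly present in every slow/slow sample. Mest, an imprinted gene expressed from the paternal allele, measured 229.8, 288 and 313 CPM in the WT and 2.62, 4.24 and 1.43 CPM in the slow/slow samples (log2 change of -6.59 ± 1.07, FDR = 3.52e-05). Nap1l5, another imprinted gene, had 5.68, 4.72 and 4.68 CPM in the WT and 0.253, 0.261 and 0.192 CPM in the slow/slow samples (log2 change of -4.37 ± 0.66, FDR = 1.54e-05). Phex, a membrane endopeptidase, was at 5.63, 4.98 and 5.52 CPM in the WT and 0.134, 0.137 and 0.274 CPM in the slow/slow samples (log2 change of -4.97 ± 0.31, FDR = 2.11e-10). All 3 were far lower in every slow/slow sample than in any WT sample. Mest also fell in NPCs, from 78.7, 78.8 and 73.6 CPM in WT to 2.77, 2.91 and 4.36 CPM with the slow polymerase (a log2 difference of -4.54, FDR = 0.000663). The test of the difference between neurons and NPCs missed the threshold for this gene (-2.05 ± 1.28 on the log2 scale, FDR = 0.181). Clec3b, a plasminogen-binding lectin, stood at 6.20, 6.97 and 5.54 CPM in the WT and 0.119, 0.274 and 0.137 CPM in the slow/slow samples (log2 change of -5.07 ± 0.41, FDR = 4.74e-09). Plcd4, a phospholipase C, measured 14.6, 15.5 and 15.5 CPM in the WT and 0.655, 0.523 and 0.411 CPM in the slow/slow samples (log2 change of -4.81 ± 0.41, FDR = 1.09e-08). For all genes of this paragraph, samples without overlap were a condition of the choice.

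Genes of the synapse were downregulated on both sides of the cleft. Of the 44 tested genes of synaptic vesicles and transmitter release, 33 fell, 28 of them by at least 2-fold, and 2 rose, and the median was -1.14. The summed level of the list was 5278 to 5805 CPM in WT and 2566 to 2639 CPM in slow/slow samples. Syn1, which ties vesicles to actin, had 236, 212 and 214 CPM in the WT and 58.96, 59.7 and 62.3 CPM in the slow/slow samples (log2 change of -1.87 ± 0.17, FDR = 2.21e-08). Snap25, a SNARE protein of vesicle fusion, was at 228, 203 and 194 CPM in the WT and 61.9, 60.3 and 58.4 CPM in the slow/slow samples (log2 change of -1.79 ± 0.25, FDR = 7.53e-06). Syt1, the calcium sensor of fast release, stood at 178, 176 and 164 CPM in the WT and 55, 63.3 and 57.7 CPM in the slow/slow samples (log2 change of -1.56 ± 0.39, FDR = 0.00208). All slow/slow samples lay below all WT samples. Syn2, the paralogue of Syn1, measured 34.9, 34.95 and 32.1 CPM in the WT and 6.17, 7.34 and 5.97 CPM in the slow/slow samples (log2 change of -2.39 ± 0.19, FDR = 4.17e-09). Sncb, the vesicle-associated beta-synuclein, had 54.6, 48.3 and 49.5 CPM in the WT and 11.6, 10.98 and 10.9 CPM in the slow/slow samples (log2 change of -2.18 ± 0.37, FDR = 4.9e-05). Unc13c, a priming factor, was at 4.63, 4.51 and 4.40 CPM in the WT and 1.13, 1.29 and 1.01 CPM in the slow/slow samples (log2 change of -1.97 ± 0.36, FDR = 0.000182). These were the 3 largest falls of the list, again with no overlap. Syn1, Syn2, Snap25 and Syt1 were among the genes the study itself picked out from these samples, as were Nrxn2 and Cntnap2 below, so their direction is not independent evidence. In NPCs 13 members of the vesicle list were upregulated and 8 downregulated, and the test between neurons and NPCs called 31 members lower and 3 higher in neurons.

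Adhesion molecules that join axons and dendrites fell in 33 of 50 cases and rose in 1, with a median of -0.87. Cntnap2, an axonal member of the neurexin superfamily, stood at 59.3, 59.1 and 56.4 CPM in the WT and 27.1, 24.7 and 27.1 CPM in the slow/slow samples (log2 change of -1.15 ± 0.18, FDR = 2.06e-05). The largest falls were those of Negr1, Ptprt and Dscam. Negr1, a GPI-anchored immunoglobulin-type protein, measured 150.3, 135 and 136 CPM in the WT and 24.8, 24.1 and 23.3 CPM in the slow/slow samples (log2 change of -2.55 ± 0.22, FDR = 1.2e-08). Ptprt, a receptor-type phosphatase, had 122, 114 and 115 CPM in the WT and 22.1, 20 and 17.8 CPM in the slow/slow samples (log2 change of -2.54 ± 0.28, FDR = 2.81e-07). Dscam, which mediates self-avoidance of neurites, was at 128, 116 and 118 CPM in the WT and 22.8, 24.2 and 23.7 CPM in the slow/slow samples (log2 change of -2.36 ± 0.17, FDR = 1.64e-09). Their slow/slow samples lay far below the WT range. The single rise was that of contactin 2 (TAG-1), a molecule of early, growing axons. Cntn2 stood at 35.5, 41.1 and 42.2 CPM in the WT and 165, 194 and 186 CPM in the slow/slow samples (log2 change of 2.20 ± 0.26, FDR = 6.95e-07). No slow/slow sample of Cntn2 was as low as a WT sample.

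On the postsynaptic side, 20 of 29 scaffold and kinase genes fell and 1 rose, but only 8 falls reached 2-fold (median -0.65). Camk2b, a subunit of the kinase CaMKII, measured 169, 149 and 147 CPM in the WT and 40.5, 40.5 and 38.97 CPM in the slow/slow samples (log2 change of -1.95 ± 0.18, FDR = 3.86e-08). Dlg4, the scaffold PSD-95, had 248, 239 and 233 CPM in the WT and 135, 147 and 147 CPM in the slow/slow samples (log2 change of -0.75 ± 0.18, FDR = 0.00163). Shank1, a scaffold that links receptors to actin, was at 100.6, 99.9 and 95.5 CPM in the WT and 58.9, 67.01 and 67.3 CPM in the slow/slow samples (log2 change of -0.62 ± 0.13, FDR = 0.000575). All WT samples were above all slow/slow samples, for the kinase subunit and for both scaffolds. Camk2a, the subunit of mature forebrain synapses, had 16.4 CPM on average in WT and 14.4 CPM in slow/slow samples (log2 change of -0.18 ± 0.39, FDR = 0.721) and did not pass the test.

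Receptor genes were lower as well. Of 33 glutamate receptor genes, 20 fell and 3 rose (median -0.91). Grin1, the obligatory NMDA receptor subunit, stood at 87.2, 74.9 and 77.1 CPM in the WT and 20.2, 21.3 and 20.99 CPM in the slow/slow samples (log2 change of -1.94 ± 0.21, FDR = 2.32e-07). Gria2, the AMPA receptor subunit that blocks calcium entry, measured 118, 98.9 and 99.9 CPM in the WT and 50.9, 47.6 and 43.99 CPM in the slow/slow samples (log2 change of -1.15 ± 0.26, FDR = 0.00121). Grm5, a metabotropic receptor, had 7.41, 7.06 and 6.13 CPM in the WT and 1.12, 1.38 and 1.40 CPM in the slow/slow samples (log2 change of -2.40 ± 0.41, FDR = 5.82e-05). Each was lower in every slow/slow sample. Shisa9, an AMPA receptor auxiliary protein, was at 7.70, 6.80 and 7.68 CPM in the WT and 0.849, 0.784 and 0.630 CPM in the slow/slow samples (log2 change of -3.28 ± 0.28, FDR = 7.81e-08). Grm2, a presynaptic metabotropic receptor, stood at 4.71, 5.17 and 5.27 CPM in the WT and 18.8, 23.1 and 21.2 CPM in the slow/slow samples (log2 change of 2.06 ± 0.28, FDR = 5.27e-06). Grm2 was thus higher in each slow/slow sample, against the direction of the list. Among 20 GABA and glycine receptor genes, 12 fell, 11 of them by at least 2-fold, and 2 rose, with a median of -1.07. Gabra5, an alpha subunit of extrasynaptic GABA-A receptors, measured 31.1, 32.7 and 26.8 CPM in the WT and 5.06, 4.58 and 4.91 CPM in the slow/slow samples (log2 change of -2.64 ± 0.29, FDR = 3.21e-07). Gabra2, another alpha subunit, had 21.7, 20.96 and 19.5 CPM in the WT and 6.05, 5.18 and 4.58 CPM in the slow/slow samples (log2 change of -1.97 ± 0.44, FDR = 0.000868). Both GABA-A subunits were lower in all slow/slow samples. Glra1, the adult glycine receptor alpha subunit, was at 1.72, 1.73 and 2.10 CPM in the WT and 6.54, 6.76 and 5.76 CPM in the slow/slow samples (log2 change of 1.78 ± 0.44, FDR = 0.00196). Glra1 went the other way in all samples.

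Voltage-gated channels fell in 37 of 49 cases, 22 of them by at least 2-fold, and rose in 4 (median -0.95). Scn2a1, the sodium channel of axon initial segments, stood at 86.4, 76.2 and 77.9 CPM in the WT and 32.04, 29.2 and 27.2 CPM in the slow/slow samples (log2 change of -1.44 ± 0.14, FDR = 3.78e-08). Kcnc4, a fast potassium channel, measured 8.53, 8.47 and 8.01 CPM in the WT and 1.71, 1.54 and 1.37 CPM in the slow/slow samples (log2 change of -2.43 ± 0.22, FDR = 2.23e-08). The slow/slow samples were below the WT samples throughout. Scn9a, the sodium channel of sensory neurons, had 1.84, 2.17 and 2.08 CPM in the WT and 14.4, 14.3 and 11.9 CPM in the slow/slow samples (log2 change of 2.74 ± 0.47, FDR = 6.01e-05). It was the strongest of the 4 rises, with slow/slow samples above the WT range. The plot of synaptic genes by sample places these genes side by side.

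**Figure D2:**
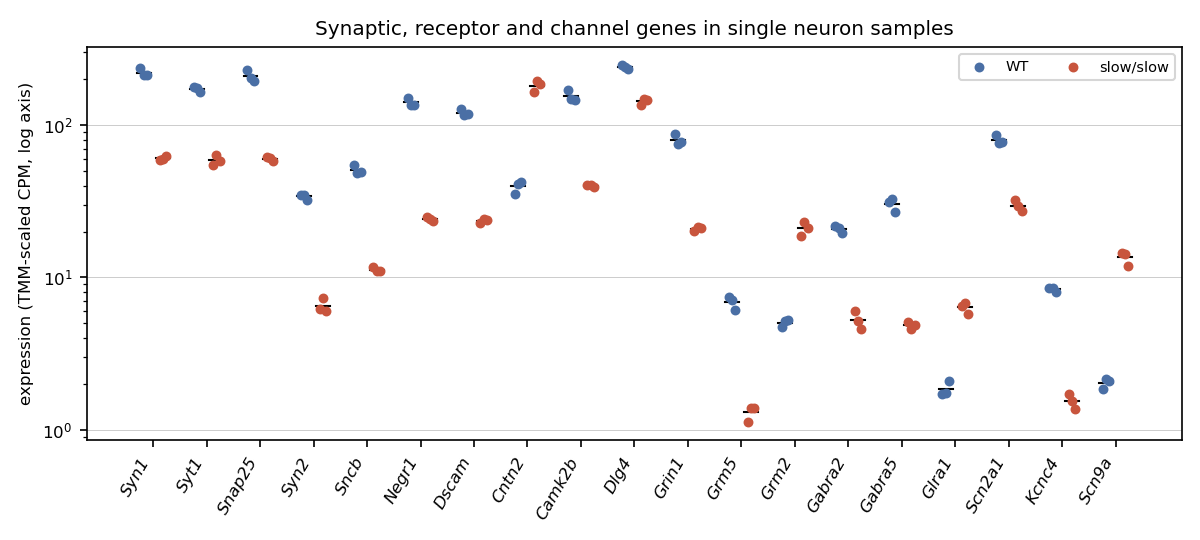
CPM (log axis) of 19 synaptic and channel genes in the 3 WT and 3 slow/slow neuron samples; each dot is a sample and each black bar the mean of 3. Slow/slow dots lie below WT dots for most genes and above them for Cntn2, Grm2, Glra1 and Scn9a.

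Activity-regulated genes had fewer calls, with 7 of 18 down and 2 up, and the number of falls dropped to 3 without slow/slow replicate 3 and to 4 without WT replicate 2 or slow/slow replicate 2. Vgf, a secreted neuropeptide precursor, was at 107, 122 and 99.9 CPM in the WT and 3.83, 4.17 and 3.84 CPM in the slow/slow samples (log2 change of -4.79 ± 0.49, FDR = 1.2e-07). Bdnf, the neurotrophin, stood at 8.39, 7.64 and 8.595 CPM in the WT and 3.28, 3.82 and 4.03 CPM in the slow/slow samples (log2 change of -1.15 ± 0.19, FDR = 3.25e-05). Egr1, an immediate early transcription factor, measured 11.6, 10.4 and 13.4 CPM in the WT and 55.2, 53.9 and 55.2 CPM in the slow/slow samples (log2 change of 2.21 ± 0.23, FDR = 1.71e-07). Vgf and Bdnf were lower, and Egr1 higher, in every slow/slow sample.

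Glial programmes moved in both directions. In the astrocyte and radial glia list 5 of 27 genes rose and 11 fell. The number of rises was 3 without WT replicate 1, 9 in the fit of neurons alone and 8 under upper-quartile scaling, where the sign of the median also turned. Gfap, the intermediate filament of astrocytes, had 1.20, 2.15 and 1.37 CPM in the WT and 0.0894, 0.162 and 0.164 CPM in the slow/slow samples (log2 change of -3.50 ± 0.45, FDR = 2.38e-06). Aldoc, an aldolase of astrocytes, was at 82.04, 97.98 and 84.5 CPM in the WT and 9.31, 9.30 and 8.88 CPM in the slow/slow samples (log2 change of -3.27 ± 0.18, FDR = 4.38e-11). Aldh1l1, a folate enzyme used as an astrocyte marker, stood at 28.2, 35.3 and 32.4 CPM in the WT and 6.03, 8.15 and 7.65 CPM in the slow/slow samples (log2 change of -2.13 ± 0.15, FDR = 1.03e-09). All were several-fold lower in each slow/slow sample, and Gfap was scarce in both genotypes. Sox9, which sets the glial fate of progenitors, measured 27.2, 30.8 and 29.5 CPM in the WT and 60.9, 71.2 and 70.1 CPM in the slow/slow samples (log2 change of 1.21 ± 0.26, FDR = 0.000592). Fgfr3, an FGF receptor of radial glia, had 51.5, 61.9 and 58.3 CPM in the WT and 129.5, 169.6 and 159 CPM in the slow/slow samples (log2 change of 1.42 ± 0.18, FDR = 1.65e-06). Gjb6, a connexin of astrocytes, was at 0.0307, 0.0321 and 0.106 CPM in the WT and 3.72, 3.47 and 3.65 CPM in the slow/slow samples (log2 change of 5.82 ± 0.45, FDR = 9.25e-09). These were higher in each slow/slow sample. In the oligodendrocyte lineage list 8 of 24 genes rose and 7 fell. Bcan, a proteoglycan of glial precursors, stood at 34.8, 48.4 and 35.9 CPM in the WT and 3.72, 3.61 and 4.30 CPM in the slow/slow samples (log2 change of -3.36 ± 0.18, FDR = 2.81e-11). Cldn11, a claudin of myelin, measured 0.200, 0.0963 and 0.116 CPM in the WT and 4.68, 3.40 and 3.75 CPM in the slow/slow samples (log2 change of 4.84 ± 0.33, FDR = 5.72e-10). Olig1, the first marker of the list, stood at 34.9, 46.7 and 33.7 CPM in the WT and 0.194, 0.324 and 0.137 CPM in the slow/slow samples (log2 change of -7.36 ± 0.35, FDR = 5.62e-12). Lhfpl3 and Pcdh15 fell too, at -2.63 ± 0.34, FDR = 8.41e-06 and at -2.69 ± 0.74, FDR = 0.00698. Against these falls, Pdgfra and Cspg4 (NG2), markers of oligodendrocyte precursors, were upregulated. Pdgfra, Lhfpl3 and Pcdh15 were chosen after their values had been seen. Pdgfra had 8.73, 10.7 and 9.77 CPM in the WT and 53.3, 37.04 and 32.2 CPM in the slow/slow samples (log2 change of 2.07 ± 0.21, FDR = 1.43e-07). Cspg4 was at 0.522, 0.321 and 0.193 CPM in the WT and 2.87, 2.44 and 2.63 CPM in the slow/slow samples (log2 change of 2.97 ± 0.59, FDR = 0.000286). Beside Olig2 above, Bcan and Olig1 were lower and Pdgfra, Cspg4 and Cldn11 were higher in every slow/slow sample, and reads of Cldn11 were scarce in WT.

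Among signalling pathways, Notch was upregulated in most of its parts: 16 of 27 genes rose and 6 fell (median 0.41). Notch1, the receptor, stood at 90.9, 105 and 105 CPM in the WT and 193, 213 and 197 CPM in the slow/slow samples (log2 change of 1.00 ± 0.08, FDR = 4e-09). Dll1, a ligand, measured 64.1, 64.5 and 64.96 CPM in the WT and 129, 145 and 145 CPM in the slow/slow samples (log2 change of 1.11 ± 0.23, FDR = 0.000391). Both were higher in every slow/slow sample. Hes5, a target that holds progenitors undifferentiated, had 12.1, 14.9 and 15.9 CPM in the WT and 80.2, 107 and 114 CPM in the slow/slow samples (log2 change of 2.81 ± 0.23, FDR = 6.87e-09). Heyl, another target, was at 0.338, 0.481 and 0.808 CPM in the WT and 26.6, 26.3 and 28.6 CPM in the slow/slow samples (log2 change of 5.61 ± 1.01, FDR = 0.000105). The targets were higher in each of them too. Hes7, the oscillating target of the presomitic mesoderm, stood at 8.23, 5.34 and 5.85 CPM in the WT and 0.670, 0.535 and 0.685 CPM in the slow/slow samples (log2 change of -3.37 ± 0.32, FDR = 4.01e-08). Dner, a neuronal Notch-related transmembrane protein, measured 419, 382 and 389 CPM in the WT and 133, 146 and 142 CPM in the slow/slow samples (log2 change of -1.50 ± 0.22, FDR = 1.4e-05). These were lower in every slow/slow sample.

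Retinoic acid genes rose in 13 of 20 cases and fell in 2, with a median of 0.77 and summed levels of 582 to 646 CPM in WT and 1601 to 1667 CPM in slow/slow samples. Cyp26b1, the enzyme that degrades retinoic acid, had 27.4, 23.3 and 27.3 CPM in the WT and 497, 560.4 and 567 CPM in the slow/slow samples (log2 change of 4.38 ± 0.29, FDR = 4.78e-10). Crabp2, which carries it to the nucleus, was at 48.7, 60.7 and 70.1 CPM in the WT and 193, 198 and 183 CPM in the slow/slow samples (log2 change of 1.67 ± 0.24, FDR = 7.92e-06). Rarb, a receptor that is also a target, stood at 6.18, 6.02 and 6.48 CPM in the WT and 20.99, 14.7 and 15.1 CPM in the slow/slow samples (log2 change of 1.44 ± 0.25, FDR = 7.32e-05). All 3 genes were higher in each slow/slow than in any WT sample. Aldh1a3, a synthesising enzyme, measured 2.95, 3.95 and 3.80 CPM in the WT and 1.01, 0.660 and 0.658 CPM in the slow/slow samples (log2 change of -2.19 ± 0.48, FDR = 0.000811). It was lower in every slow/slow sample.

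In the FGF and EGF list the falls prevailed, with 19 of 34 down, 8 up and a median of -0.90. Fgf17, a ligand of the Fgf8 group, had 5.37, 4.11 and 4.39 CPM in the WT and 0.491, 0.535 and 0.439 CPM in the slow/slow samples (log2 change of -3.22 ± 0.21, FDR = 2.89e-10). Nrg3, a ligand of ErbB4, was at 21.02, 20.2 and 17.8 CPM in the WT and 5.84, 5.64 and 5.48 CPM in the slow/slow samples (log2 change of -1.80 ± 0.31, FDR = 7.43e-05). Both were lower in every slow/slow sample. Fgf15, a ligand of the neural tube, stood at 9.93, 12.6 and 12.4 CPM in the WT and 42.3, 34.9 and 35.3 CPM in the slow/slow samples (log2 change of 1.69 ± 0.32, FDR = 0.000175). Fgfr4, a receptor, measured 0.246, 0.385 and 0.462 CPM in the WT and 2.96, 2.91 and 2.47 CPM in the slow/slow samples (log2 change of 2.91 ± 0.30, FDR = 1.14e-07). Fgf15 and Fgfr4 were higher in every slow/slow sample. The receptor Egfr had 29.98 CPM on average in WT and 15.9 CPM in slow/slow samples (log2 change of -0.91 ± 0.41, FDR = 0.0667) and did not pass the test.

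Wnt genes were mixed (16 of 41 up, 12 down). Sfrp2, a secreted inhibitor, had 55.6, 62.2 and 64.8 CPM in the WT and 408, 457 and 471 CPM in the slow/slow samples (log2 change of 2.87 ± 0.27, FDR = 4.43e-08). It was higher in every slow/slow sample. Sp5, a direct target, was at 16.2, 13.8 and 13.5 CPM in the WT and 2.92, 2.09 and 3.15 CPM in the slow/slow samples (log2 change of -2.42 ± 0.40, FDR = 4.3e-05). Notum, a feedback inhibitor, stood at 5.66, 4.75 and 5.13 CPM in the WT and 0.968, 0.983 and 1.01 CPM in the slow/slow samples (log2 change of -2.39 ± 0.17, FDR = 1.21e-09). Lef1, the nuclear effector, measured 17.6, 20.2 and 18.4 CPM in the WT and 8.16, 6.86 and 8.93 CPM in the slow/slow samples (log2 change of -1.23 ± 0.38, FDR = 0.0102). Sp5, Notum and Lef1 were lower in every slow/slow sample. In the Hedgehog list 9 of 15 rose and 4 fell. Although Shh fell, other parts of the pathway were higher. Boc, a co-receptor, had 24.95, 30.8 and 32.8 CPM in the WT and 138, 156 and 152 CPM in the slow/slow samples (log2 change of 2.33 ± 0.21, FDR = 2.1e-08). Gli3, a transcription factor that acts mainly as repressor, was at 30.5, 33.9 and 36.3 CPM in the WT and 103, 99.9 and 94.4 CPM in the slow/slow samples (log2 change of 1.56 ± 0.22, FDR = 7.71e-06). Gli1, an activator and target, stood at 14.5, 17.96 and 18.6 CPM in the WT and 31.4, 32.6 and 31.7 CPM in the slow/slow samples (log2 change of 0.91 ± 0.10, FDR = 1.69e-07). All 3 were higher in every slow/slow sample, whereas Ptch1, the receptor and another target, did not pass the test (0.01 ± 0.17, FDR = 0.963). BMP and TGF-beta genes rose in 20 of 43 cases and fell in 12. Bmpr1b, a receptor, measured 3.94, 5.18 and 4.66 CPM in the WT and 34.9, 36.7 and 35.4 CPM in the slow/slow samples (log2 change of 2.95 ± 0.33, FDR = 3.83e-07). Bmp5, a ligand, had 0.936, 0.979 and 1.04 CPM in the WT and 9.98, 7.48 and 8.96 CPM in the slow/slow samples (log2 change of 3.16 ± 0.29, FDR = 2.93e-08). Id1, a target, was at 10.5, 13.2 and 14.6 CPM in the WT and 44.2, 46.8 and 53.1 CPM in the slow/slow samples (log2 change of 1.91 ± 0.18, FDR = 4.24e-08). Receptor, ligand and target were higher in every slow/slow sample. Nog, an antagonist, stood at 15.7, 13.4 and 15 CPM in the WT and 5.81, 5.91 and 5.76 CPM in the slow/slow samples (log2 change of -1.34 ± 0.34, FDR = 0.00271). The antagonist was lower in each of them.

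Axon guidance genes fell in 24 of 48 cases and rose in 10, with a median of -0.47. Robo3, the receptor that lets commissural axons cross the midline, measured 4.34, 4.61 and 5.87 CPM in the WT and 266, 314 and 289.6 CPM in the slow/slow samples (log2 change of 5.87 ± 0.33, FDR = 4.38e-11). Robo1, a Slit receptor, had 95.9, 99.4 and 95.1 CPM in the WT and 227, 251 and 233 CPM in the slow/slow samples (log2 change of 1.29 ± 0.24, FDR = 0.000164). Both receptors were higher in all slow/slow samples, and Robo3 was the largest rise of the list. Slit2, a midline repellent, was at 261, 281 and 279 CPM in the WT and 72.6, 67.02 and 67.2 CPM in the slow/slow samples (log2 change of -1.99 ± 0.20, FDR = 7.03e-08). Sema3c, a secreted semaphorin, stood at 63.6, 69.2 and 77.5 CPM in the WT and 19.9, 19.97 and 19.8 CPM in the slow/slow samples (log2 change of -1.82 ± 0.23, FDR = 1.65e-06). Both ligands were lower in all slow/slow samples. In the list of neurotrophic factors 6 of 27 rose and 10 fell. Ntrk2, the BDNF receptor, measured 118, 114 and 111 CPM in the WT and 52.2, 51.1 and 49.96 CPM in the slow/slow samples (log2 change of -1.16 ± 0.23, FDR = 0.000282). Alk, a receptor kinase of neuroblasts, had 7.64, 6.63 and 7.27 CPM in the WT and 1.59, 1.71 and 1.37 CPM in the slow/slow samples (log2 change of -2.20 ± 0.24, FDR = 3.02e-07). Both were lower in all slow/slow samples.

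In most of the other stress lists falls outnumbered rises, as they did over all genes (29.6% down and 21.8% up). In the integrated stress response 12 of 29 genes fell and none rose, in the unfolded protein response 11 of 22 fell and 1 rose, and in the heat shock list 4 of 21 fell, a smaller share than over all genes, and 1 rose. Under upper-quartile scaling the median of the heat shock list changed sign and the falls in the unfolded protein response numbered 7, and in the fit of neurons alone 7 heat shock genes rose and 9 fell. That fit also gave 4 rises in the integrated stress response and 5 in the unfolded protein response. Asns, asparagine synthetase, was at 154, 153 and 157 CPM in the WT and 99.2, 108 and 87.8 CPM in the slow/slow samples (log2 change of -0.65 ± 0.11, FDR = 7.83e-05). Cth, an enzyme of cysteine synthesis, stood at 14.03, 18.2 and 14.98 CPM in the WT and 4.04, 4.39 and 4.28 CPM in the slow/slow samples (log2 change of -1.89 ± 0.18, FDR = 3.51e-08). Both were lower in every slow/slow sample. Ddit3 (CHOP), Xbp1 and Hsp90b1 did not pass the test, at -0.73 ± 0.34, FDR = 0.0799, at 0.18 ± 0.16, FDR = 0.356 and at -0.06 ± 0.08, FDR = 0.571. Targets of p53 and apoptosis genes fell in 18 of 28 cases and rose in 1, with a median of -0.54. Cdkn1a, the cell cycle inhibitor p21, measured 90.3, 86.1 and 103 CPM in the WT and 38.9, 43.8 and 41.9 CPM in the slow/slow samples (log2 change of -1.17 ± 0.22, FDR = 0.00019). Fas, a death receptor, had 3.87, 4.70 and 5.20 CPM in the WT and 0.432, 0.647 and 0.548 CPM in the slow/slow samples (log2 change of -3.07 ± 0.32, FDR = 1.65e-07). Pmaip1, the BH3-only protein Noxa, was at 6.43, 6.93 and 6.51 CPM in the WT and 1.92, 1.80 and 1.86 CPM in the slow/slow samples (log2 change of -1.83 ± 0.19, FDR = 1.79e-07). All were lower in every slow/slow sample, whereas Trp53 and Mdm2, the factor and its ubiquitin ligase, did not pass (log2 change of -0.16 ± 0.15, FDR = 0.391, and -0.40 ± 0.23, FDR = 0.151). Oxidative stress genes fell in 11 of 22 cases and rose in 2. Gstm1, a glutathione transferase, stood at 45.6, 45.1 and 47.3 CPM in the WT and 10.4, 10.2 and 8.74 CPM in the slow/slow samples (log2 change of -2.23 ± 0.16, FDR = 7.83e-10). Gclm, a subunit of the enzyme that starts glutathione synthesis, measured 48.4, 46.3 and 47.3 CPM in the WT and 23.5, 23.9 and 23 CPM in the slow/slow samples (log2 change of -1.01 ± 0.13, FDR = 1.98e-06). The slow/slow samples lay below the WT samples for both. Hypoxia and glycolysis genes were split (11 of 27 up, 6 down), and the number of rises was 7 without WT replicate 1, without WT replicate 3 or without slow/slow replicate 1. Adm, a peptide induced by low oxygen, had 0.138, 0.257 and 0.231 CPM in the WT and 1.85, 2.02 and 2.03 CPM in the slow/slow samples (log2 change of 3.21 ± 0.51, FDR = 2.69e-05). Hk1, the neuronal hexokinase, was at 208, 189 and 192 CPM in the WT and 92.1, 98.5 and 92.1 CPM in the slow/slow samples (log2 change of -1.06 ± 0.09, FDR = 1.38e-08). Adm was higher and Hk1 lower in every slow/slow sample.

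Interferon-stimulated genes, which cells switch on in defence against viruses, were upregulated almost throughout. Of 51 tested genes 43 rose, 40 of them by at least 2-fold, and 3 fell, and the median log2 change was 3.01. The summed level was 393 to 405 CPM in WT and 956 to 1103 CPM in slow/slow samples. Ifit1, which binds viral RNA caps, stood at 0.0460, 0.128 and 0.125 CPM in the WT and 9.55, 8.74 and 12.3 CPM in the slow/slow samples (log2 change of 6.61 ± 1.31, FDR = 0.000276). Isg15, a ubiquitin-like modifier, measured 0.307, 0.273 and 0.202 CPM in the WT and 11.1, 11.04 and 15.6 CPM in the slow/slow samples (log2 change of 5.61 ± 1.05, FDR = 0.000157). Neither was above 1 CPM in a WT sample. Usp18, the protease that removes it, had 0.414, 0.754 and 0.741 CPM in the WT and 40.9, 40.2 and 64.1 CPM in the slow/slow samples (log2 change of 6.23 ± 1.01, FDR = 3.29e-05). Irf7, a transcription factor of the response, was at 0.292, 0.369 and 0.520 CPM in the WT and 5.18, 4.99 and 4.99 CPM in the slow/slow samples (log2 change of 3.65 ± 0.70, FDR = 0.000194). All were near 0 in WT samples and clearly expressed in each of the slow/slow samples. The following members were chosen after their values had been seen. Irf9, a transcription factor of the response, stood at 14.1, 11.9 and 13.5 CPM in the WT and 47.7, 47.3 and 54.6 CPM in the slow/slow samples (log2 change of 1.92 ± 0.30, FDR = 1.92e-05). B2m, the light chain of MHC class I, measured 19.9, 21.6 and 24.2 CPM in the WT and 50.3, 42.2 and 46.9 CPM in the slow/slow samples (log2 change of 1.09 ± 0.26, FDR = 0.00162). Irf9 and B2m were thus well expressed in WT neurons too, and higher in all slow/slow samples. Ifitm1, a membrane protein that restricts virus entry, had 13.5, 14.1 and 14.1 CPM in the WT and 3.74, 3.15 and 3.23 CPM in the slow/slow samples (log2 change of -2.04 ± 0.26, FDR = 1.83e-06). It was one of the 3 falls. The receptor chain Ifnar1 was lower by a small amount (-0.24 ± 0.05, FDR = 0.00102, called in all but 1 of the alternative analyses), and Irf1 and Stat2 did not pass (0.07 ± 0.29, FDR = 0.859, and 0.37 ± 0.19, FDR = 0.108). Ifnb1, the ligand, had 1 count over the WT and 3 counts over the slow/slow libraries, at or below the floor of 3 counts. Ifit, Oas, Gbp and H2 genes are near-identical families, so single values among them are uncertain.

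The list moved differently in NPCs. There 3 members of the interferon list were upregulated and 23 downregulated, and the test of the difference called 43 members higher and 2 lower in neurons, against 23.8% and 31.2% over all genes. The plot of interferon-stimulated genes by sample also shows that Pecam1 and Tek of the endothelium were higher in the same samples. Csf1r of macrophages was higher too, but its call did not hold in all alternative analyses. Of the 16 members of its list, 10 were below the filter. The part of endothelial and macrophage transcripts in the result was not tested.

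**Figure D3:**
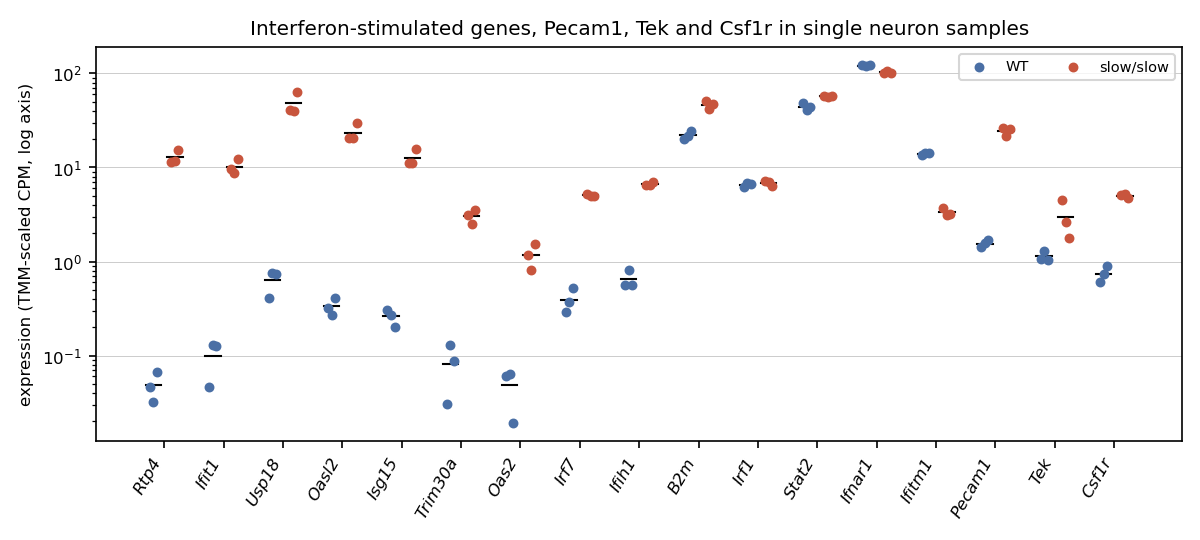
CPM (log axis) of 14 interferon-related genes and of the endothelial and macrophage markers Pecam1, Tek and Csf1r in the 3 WT and 3 slow/slow neuron samples; each dot is a sample and each black bar the mean of 3. Ifit1, Isg15 and Usp18 are below 1 CPM in WT and above 8 CPM in slow/slow samples, whereas Irf1, Stat2 and Ifnar1 lie close together.

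Interferon acts through the interferon-stimulated response element, a motif bound by complexes that hold Stat2 and Irf9. Promoters of 300 bases (250 before to 50 after the start) from RefSeq on the GRCm38.p6 build were found for 40 of the 51 members. The motif GAAANNGAAA was searched on both strands. It was present in 17 of these 40 genes (42.5%) and in 1079 of 27025 genes overall (3.99%). The list was made of interferon-stimulated genes, so this share is a property of the list and not a result about slow/slow neurons. Among the 32 members with a promoter that rose, 14 held the motif, and among the other 8 members, 3 did. A match is only a match of letters. The promoters of Ifit1 and Isg15 are shown because they hold 2 and 3 matches, and that of Irf7 because it rose without a match in this window. Capitals mark the motif, and in Ifit1 it lies on the opposite strand, the first match beginning at position -104 from the start.
Ifit1, chr19:34640639-34640938, plus strand: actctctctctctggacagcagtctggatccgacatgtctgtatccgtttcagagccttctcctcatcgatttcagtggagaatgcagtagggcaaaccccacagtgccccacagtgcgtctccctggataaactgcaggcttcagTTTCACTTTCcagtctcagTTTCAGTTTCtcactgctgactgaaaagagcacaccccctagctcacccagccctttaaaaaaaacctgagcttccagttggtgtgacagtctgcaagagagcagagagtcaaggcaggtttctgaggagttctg
Isg15, chr4:156200769-156201068, minus strand: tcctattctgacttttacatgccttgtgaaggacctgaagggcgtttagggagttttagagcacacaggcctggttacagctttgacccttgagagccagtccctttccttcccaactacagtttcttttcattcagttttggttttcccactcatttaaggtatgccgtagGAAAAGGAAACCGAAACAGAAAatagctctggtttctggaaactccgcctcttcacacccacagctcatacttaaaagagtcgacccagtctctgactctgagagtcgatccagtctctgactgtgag
Irf7, chr7:141266375-141266674, minus strand: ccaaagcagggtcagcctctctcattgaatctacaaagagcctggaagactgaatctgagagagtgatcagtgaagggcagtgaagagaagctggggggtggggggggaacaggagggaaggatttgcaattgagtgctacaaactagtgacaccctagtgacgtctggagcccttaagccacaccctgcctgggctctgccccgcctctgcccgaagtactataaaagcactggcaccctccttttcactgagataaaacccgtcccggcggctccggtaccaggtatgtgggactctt
The 3 motifs of Isg15 overlap one another in a single stretch that begins at position -78.

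Of 53 genes of splicing regulators 15 rose and 10 fell, but only 3 rises and 4 falls reached 2-fold, and the rises numbered 34 in the fit of neurons alone and 25 under upper-quartile scaling. Celf4, a neuronal CELF protein, was at 383, 349.7 and 354 CPM in the WT and 125, 135 and 135 CPM in the slow/slow samples (log2 change of -1.46 ± 0.12, FDR = 1.03e-08). Khdrbs2, a neuronal STAR protein also called SLM1, stood at 13.8, 13.1 and 12.5 CPM in the WT and 5.94, 5.69 and 5.04 CPM in the slow/slow samples (log2 change of -1.24 ± 0.31, FDR = 0.00211). Mbnl3, a muscleblind protein, measured 3.94, 3.66 and 4.67 CPM in the WT and 15.6, 15.2 and 13.7 CPM in the slow/slow samples (log2 change of 1.86 ± 0.50, FDR = 0.00398). Celf4 and Khdrbs2 were lower and Mbnl3 higher in every slow/slow sample. Srrm4, the main activator of neural microexons, was at 86.8, 79.1 and 81.4 CPM in WT and 93.8, 96.1 and 88.9 CPM in slow/slow samples and did not pass the test (0.17 ± 0.24, FDR = 0.574). Its relative Srrm3 and the repressor Ptbp1, chosen after their values had been seen, did not pass either (-0.15 ± 0.27, FDR = 0.659, and -0.13 ± 0.12, FDR = 0.381).

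Exon inclusion was measured as PSI, the percentage of transcripts that contain an exon. An exon was called where the mean PSI differed by more than 10 points and the posterior probability of a difference was over 0.95. Of the 22021 exons tested, 434 (1.97%) were more and 344 (1.56%) less included in slow/slow neurons, 3.53% in all, in 663 genes. Of 766 called exons whose gene was tested, 93 lay in upregulated, 324 in downregulated and 349 in genes that were not called. Over all 15097 genes 21.8% were upregulated and 29.6% downregulated. The shares over genes that hold tested exons were not counted. Length divided the exons. Among 21486 exons longer than 27 nucleotides, 410 (1.91%) were more and 261 (1.21%) less included, or 3.12% together. Among 535 microexons of at most 27 nucleotides, 24 (4.49%) were more and 83 (15.5%) less included, or 20% together. All 107 called microexons had samples that did not overlap. The threshold on the posterior probability makes this likely, so it is no separate support for the calls.

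Microexons are more often alternative than longer exons, so exons with a WT PSI between 10 and 90% were also counted. Of 212 such microexons, 22 (10.4%) were more and 77 (36.3%) less included, and their median PSI change was -7.70 points. Of 2261 such longer exons, 401 (17.7%) were more and 227 (10.0%) less included. By length, the less included share was 38.8% up to 15, 33.9% from 16 to 27, 20.3% from 28 to 50 and 9.61% from 51 to 100 nucleotides. The more included share over the same classes was 12.6%, 8.26%, 17.1% and 21.9%. Beyond 100 nucleotides both shares were lower than in the class from 51 to 100, as the plot of called shares by exon length shows. Exons with a length divisible by 3 were frequent among the calls: 93.5% of called microexons and 63.0% of called longer exons had such a length, against 76.8% and 41.4% of those tested. These shares were not limited to a WT PSI between 10 and 90%. Most tested longer exons were nearly always included (median WT PSI of 99.4%), so the comparison does not set called against other alternative exons.

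**Figure D4:**
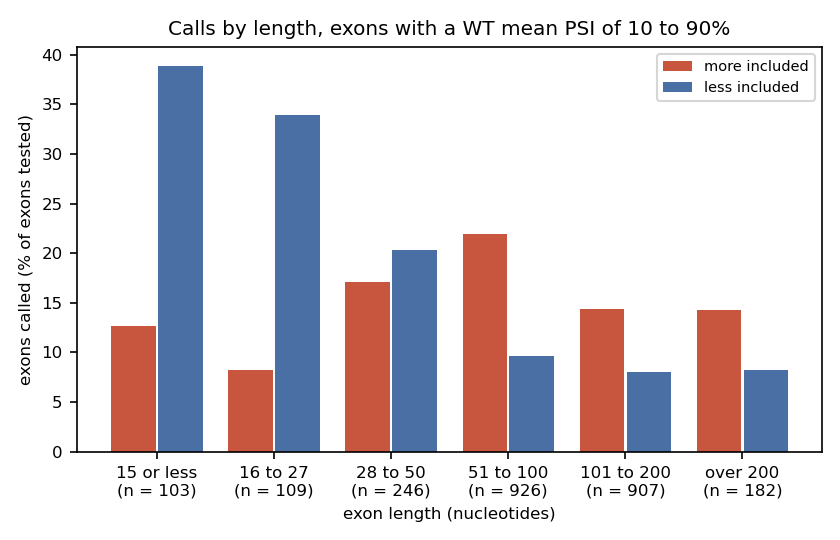
Percent of exons that were more or less included in slow/slow neurons, by exon length in nucleotides, among exons with a mean WT PSI between 10 and 90%. Less inclusion leads up to 50 nucleotides, most clearly in the shortest classes (38.8 against 12.6%), and more inclusion leads in the longer classes (21.9 against 9.61% from 51 to 100 nucleotides).

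The sequences below are those of microexons with some of the largest changes. Exons were matched by gene, exon length and the lengths of both flanking introns to a GENCODE transcript on GRCm38, since the splicing table gives coordinates on mm9. Of the 107 called microexons 89 found a match, and 85 of these lay themselves within coding sequence. The microexon is in capitals and the 15 bases of exon on either side, read along the spliced transcript, are in lower case. The first 3 were less included and the last 2 more included in slow/slow neurons.
Baz2b, 27 nucleotides, chr2:59933412-59933438, minus strand: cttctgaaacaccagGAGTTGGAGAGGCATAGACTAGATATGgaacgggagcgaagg
Nav1, 9 nucleotides, chr1:135457861-135457869, minus strand: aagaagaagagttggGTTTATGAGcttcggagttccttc
Ccdc64, 12 nucleotides, chr5:115672144-115672155, minus strand: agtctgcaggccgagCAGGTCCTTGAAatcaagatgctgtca
Macf1, 9 nucleotides, chr4:123386549-123386557, minus strand: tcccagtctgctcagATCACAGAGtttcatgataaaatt
Ptprz1, 21 nucleotides, chr6:23024714-23024734, plus strand: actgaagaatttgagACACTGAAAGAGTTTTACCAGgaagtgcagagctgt
These exons have 9, 12, 21 or 27 nucleotides, and each adds whole codons.

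The PSI of the 27-nucleotide exon of Baz2b, a bromodomain protein, was 84.8, 79.6 and 87.03% in WT and 38.3, 34.9 and 43.2% in slow/slow neurons (mm9 chr2:59771469-59771495, a difference of -45.01 points, limma FDR = 0.000187). In Nav1, a neuron navigator protein that guides microtubules, the 9-nucleotide exon was at 74.9, 79.5 and 74% in WT and 34.6, 28.9 and 37.6% in slow/slow neurons (mm9 chr1:137354438-137354446, -42.4 points, limma FDR = 0.000263). Ccdc64, an adaptor of dynein, had its 12-nucleotide exon at 58.2, 59.5 and 59.95% in WT and 25.8, 21.6 and 34.5% in slow/slow neurons (mm9 chr5:116122153-116122164, -31.9 points, limma FDR = 0.000684). Slow/slow samples of these exons were all far below the WT samples. The 23-nucleotide exon of Arhgap23, a GTPase-activating protein, was at 89.4, 86.5 and 87.2% in WT and 44.5, 41.3 and 46.8% in slow/slow neurons (-43.5 points, limma FDR = 0.000127). In Dock9, an activator of Cdc42, the 8-nucleotide exon was at 70.2, 76.8 and 66.8% in WT and 41.4, 25.9 and 19.6% in slow/slow neurons (-42.3 points, limma FDR = 0.00343), and in Prom1, the membrane glycoprotein CD133, the 24-nucleotide exon was at 73.6, 78.1 and 82.1% in WT and 49.3, 38.9 and 49.8% in slow/slow neurons (-31.9 points, limma FDR = 0.000803). These exons were chosen among calls without overlap of the samples, and the Dock9 exon rested on only 19 to 47 reads per sample. The level of the Dock9 gene did not pass the test (log2 change of -0.05), while Nav1 fell by 0.98 on that scale.

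Some microexons moved the other way. The 9-nucleotide exon of Macf1, which links actin and microtubules, was at 19.02, 26.7 and 28.4% in WT and 65.2, 67.5 and 64.6% in slow/slow neurons (mm9 chr4:123063792-123063800, 41.1 points, limma FDR = 0.000272). The 21-nucleotide exon of Ptprz1, a receptor phosphatase of glial precursors, was at 47.98, 44.5 and 48.1% in WT and 69.1, 74.9 and 77.97% in slow/slow neurons (mm9 chr6:22974714-22974734, 27.1 points, limma FDR = 0.00126). Robo1 had a 9-nucleotide exon at 32.1, 21.4 and 29.6% in WT and 49.1, 49.6 and 55.5% in slow/slow neurons (23.7 points, limma FDR = 0.00293), in addition to the rise of the gene itself. Max, the partner of Myc, had a 27-nucleotide exon at 25.3, 25.1 and 26.03% in WT and 48.4, 44.8 and 58.9% in slow/slow neurons (25.2 points, limma FDR = 0.00132). All 4 exons were more included in every slow/slow than in any WT sample, as their choice required. The remaining exons named by the rule, in Sgce and Vps29, differed by 24.9 and 24.6 points.

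Among known neural microexons, chosen after their values had been seen, the pattern was divided as well. The 12-nucleotide exon of Kdm1a, which turns the histone demethylase LSD1 into its neuronal form, was at 59.8, 55.8 and 53.9% in WT and 27.02, 26.98 and 26.9% in slow/slow neurons. The 18-nucleotide N1 exon of the kinase Src was at 76.8, 71.1 and 70.96% in WT and 56.8, 55.8 and 58.3% in slow/slow neurons, and the 12-nucleotide exon of Agrn, an organiser of synapses, was at 57.9, 55.5 and 56.1% in WT and 75.8, 78.1 and 76.5% in slow/slow neurons. Kdm1a and Src exons were less and the Agrn exon more included in each slow/slow sample. The plot of microexon inclusion by genotype shows the balance between both directions.

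**Figure D5:**
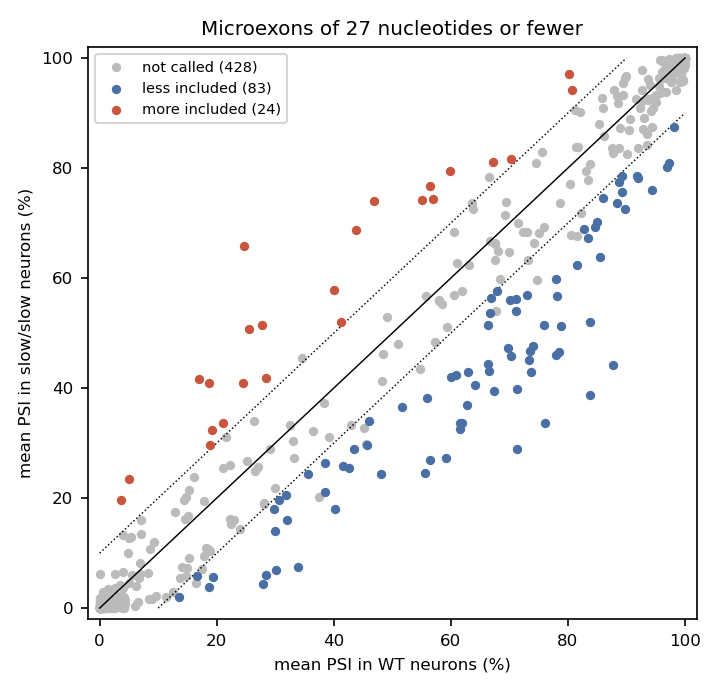
Mean PSI of microexons (at most 27 nucleotides) in 3 WT (horizontal axis) and 3 slow/slow (vertical axis) neuron samples, in percent; each point is an exon and the dotted lines mark a difference of 10 points. Of the called microexons, 83 lie below and 24 above the dotted lines.

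Longer exons changed too. The largest differences among those named by the rule were in Mll5, a chromatin regulator, and in Wdr7, a protein with WD repeats. The 126-nucleotide exon of Mll5 was at 21.6, 25.7 and 28.6% in WT and 71.6, 75.6 and 75.7% in slow/slow neurons (49.04 points, limma FDR = 5.48e-05). The 96-nucleotide exon of Wdr7 was at 61.6, 63.6 and 60.8% in WT and 12.7, 9.09 and 13.5% in slow/slow neurons (-50.2 points, limma FDR = 5.48e-05). Luc7l, a U1 snRNP-associated splicing factor, had its 71-nucleotide exon at 19.6, 19.8 and 19.7% in WT and 65.7, 63.3 and 65.6% in slow/slow neurons (45.2 points, limma FDR = 4.13e-05). The 62-nucleotide exon of Neil1, a DNA glycosylase, was at 31.7, 38.4 and 36.9% in WT and 81.4, 81.8 and 88.1% in slow/slow neurons (48.1 points, limma FDR = 0.000248). Clip2, a protein of microtubule plus ends, had a 105-nucleotide exon at 72.9, 72.9 and 76.3% in WT and 28.3, 30.1 and 31.4% in slow/slow neurons (-44.1 points, limma FDR = 5.48e-05). The exons of Luc7l and Neil1 were more included and that of Clip2 less included in every slow/slow sample, as their choice required. The gene level of Clip2 did not pass the test (FDR = 0.0986). Of the other longer exons with the largest differences, those of Neurl4, Lrch2 and Neo1 were more included, by 43.8, 41.6 and 40.5 points. Those of Pxk, Mical3, Foxm1 and Ppip5k2 were less included, with differences of -44.6, -42, -41.3 and -41.1 points.

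In genes of the synaptic lists, 354 exons were tested, of which 15 (4.24%) were more and 26 (7.34%) less included. Over all exons the shares were 1.97% and 1.56%. With a WT PSI between 10 and 90%, 16.7% of 84 synaptic exons were more and 28.6% less included. Over all such exons 17.1% were more and 12.3% less included. Of their 34 microexons, 2 (5.88%) were more and 9 (26.5%) less included, against 4.49% and 15.5% of all microexons. The exons of Unc13b, Nrxn2 and Gphn show the 2 directions on both sides of the synapse. Unc13b, a priming factor of vesicles, had a 57-nucleotide exon at 65.8, 52.9 and 48.8% in WT and 25.1, 23.2 and 19.5% in slow/slow neurons (-33.2 points, limma FDR = 0.00113). The 90-nucleotide exon of Nrxn2, a presynaptic neurexin, was at 45.3, 46.8 and 46.5% in WT and 77.5, 77.7 and 79.8% in slow/slow neurons (32.1 points, limma FDR = 8.54e-05). Gphn, the scaffold of inhibitory synapses, had a 108-nucleotide exon at 12.8, 17.2 and 18.2% in WT and 45.95, 42.6 and 40.7% in slow/slow neurons (26.99 points, limma FDR = 0.000536). The Nrxn2 gene itself fell by 1.45 on the log2 scale, whereas Unc13b was upregulated by 0.79. In the postsynaptic genes Dlg3 (SAP102) and Camk2g, exons of 46 and 33 nucleotides were less included. Dlg3 was at 83.9, 80 and 74.3% in WT and 46.1, 49.8 and 50.3% in slow/slow neurons (-30.7 points, limma FDR = 0.000707), and Camk2g was at 75.8, 76 and 68.9% in WT and 46.3, 38.5 and 45.99% in slow/slow neurons (-29.9 points, limma FDR = 0.000724). No sample of one genotype reached the range of the other for these 5 exons. The exons of Cadm1 and Odz2 had differences of 29.2 and -27.6 points.

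In genes of splicing regulators, 107 exons were tested, with 5 (4.67%) more and 1 (0.93%) less included, against 1.97% and 1.56% of all exons. Hnrnpa2b1, an RNA-binding protein of the hnRNP A/B family, had a 73-nucleotide exon at 41.1, 38.1 and 39.3% in WT and 72.2, 71.7 and 73.2% in slow/slow neurons (32.8 points, limma FDR = 8.91e-05). Every slow/slow sample was well above the WT range for this exon, and the gene was upregulated by 0.69 on the log2 scale.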

How the data were processed

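Mouse cells were profiled by RNA-seq in 24 libraries, 3 for each of 8 groups, and the 6 neuron libraries are described. The deposited expression table holds raw counts of reads for each gene, made from reads demultiplexed with bcl2fastq 2.17.1.14, beside their own mean RPKM values for each group, which were not used. Whether counting used strand is not given in the sources used here. They also deposited PSI as a percent for each exon event and sample, with quality scores and corrected inclusion and exclusion reads, on mm9. A further deposited table holds the authors' own splicing comparisons and was not used, and all per-sample columns could be mapped (0 left over).

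Counts were fitted in R 4.3.3 with edgeR 4.0.16 (filterByExpr, TMM scaling, quasi-likelihood test, FDR over all 16627 genes of the fit, 16 residual degrees of freedom), with 1 group per cell type and genotype. The fold changes in neurons and NPCs, and their difference, are contrasts of this model. The neuron libraries held 32974432 to 104466886 reads, and no pair was identical. Exact intervals and floors cover counting error only.

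Exon events were kept with sufficient coverage in all 6 neuron samples. The balance score was blank for all 479 events of the microexon class and was not asked of them, and 58 of these were called. Tested exons rested on a median of 237 reads. A difference of mean PSI over 10 points with a posterior probability over 0.95, from beta posteriors pooled over replicates, was called. limma 3.58.1 on the logit of inclusion reads, over events with a pooled PSI of 3 to 97%, was an alternative and gives the FDR printed beside exons. The main edgeR fit of neurons, the exon calls and this limma fit were tested on simulated data. The other alternatives and the difference between neurons and NPCs were not.

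Genes are named by rule. A first set holds the 10 largest rises and 10 largest falls among called genes with a mean of at least 5 CPM. Their neuron samples had to be without overlap. From each list come the first 3 genes and up to 3 members called at 2-fold in each direction with at least 1 CPM. Exons are the 6 largest changes of each direction and class among called exons without overlap. A further 10 are called exons in synaptic or splicing genes, chosen without regard to overlap. In the sets chosen for no overlap, its absence is a condition and not a result. The genes given from these are a selection, and some genes are not reported here. The members and lists were chosen with earlier results of these data known.

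Alternatives were DESeq2 1.42.0 (test and size factors), upper-quartile scaling, no filter, the neurons alone, a replicate block, each neuron sample left out in turn, 15 points and stricter coverage. Samples of both genotypes that share a replicate number did not deviate together (correlations of -0.13, 0.00 and -0.06), so the numbers do not pair them.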

Additional observations from a re-analysis of the deposited data

Results flagged for a closer look

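Among the genes with the largest changes in neurons, the 15 given here had a genotype effect that differed between neurons and NPCs by edgeR's test of the difference, adjusted over all genes. The values are the log2 change in neurons minus that in NPCs. The difference was positive for the endodermal gene Afp (6.35), for the transporter Slc22a6 (10.17), for the endothelial genes Tie1 (9.67) and Esm1 (5.06), and for the interferon-stimulated genes Rtp4 (7.82) and Ifit1 (7.25). It was negative for the caudal factors Cdx1 (-6.14) and Cdx2 (-3.87), for the glial and motor neuron progenitor factors Olig1 (-5.91) and Olig2 (-6.75), for Clec3b (-5.50), Phex (-5.42) and Plcd4 (-4.0), for the neuropeptide precursor Vgf (-4.90) and for the imprinted gene Nap1l5 (-3.97). In NPCs Slc22a6 had 0, 0.0302 and 0 CPM in the WT and 0 CPM in each slow/slow sample. The size of its difference (SE of 2.60) thus rests on almost no reads in NPCs. Esm1, Rtp4, Ifit1, Olig2, Clec3b, Phex and Nap1l5 were also below 1 CPM in every NPC sample, so the sizes of their differences are of low precision. Groups of 3 samples were not screened for single samples that stand apart.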

How the results depend on the processing

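With 863 exons called in neurons over all chromosomes, a minimum of 15 points in place of 10 left 508. The other alternatives kept the counts of genes, list members, exons and microexons within 1.5 times, and no named gene or exon changed direction. Leaving out each neuron sample in turn gave 7589 to 7816 called genes (8626 with all), 3133 to 3291 at 2-fold, 644 to 656 list members, 839 to 941 exons and 109 to 127 microexons. Counts of some lists moved more. In the fit of the neurons alone, rises went from 4 to 9 in the hindbrain list, from 3 to 7 among glutamate receptors and from 1 to 5 among adhesion genes, falls went from 4 to 7 in the fibroblast list and from 3 to 5 in the pluripotency list, and the GABAergic list had 12 rises and 11 falls. That fit also gave 4 rises in each of the pan-neuronal, postsynaptic and p53 lists (1 in the fit of all samples), 4 in the oxidative stress list (2), 4 falls in the retinoic acid list (2) and 2 in the cell division list (0). Upper-quartile scaling gave 6 falls among splicing regulators (10), 3 among activity-regulated genes (7), 2 in the Hedgehog list (4), 1 in the interferon list (3), 2 falls and 4 rises in the heat shock list (4 and 1) and 2 rises in the integrated stress response (0). It and the replicate block gave 5 rises among glutamate receptors, and DESeq2 gave 3 among adhesion and heat shock genes. The remaining changes of over 1.5 times and at least 2 genes stand beside the counts. With the replicate number as a block, 8867 genes were called, 3382 of them at 2-fold, with 742 list members, and limma with the block called 853 exons and 113 microexons. Since samples with the same number did not deviate together, this is not a paired analysis, and none of the genes followed lost its call under it. Of 251 list genes followed, 25 lost their call in at least one alternative and 19 gained one, while the 20 interaction results followed stayed on their side. The 34 exons followed stayed on their side wherever they could be tested. Under the stricter coverage only 31 could be, and the exons of Mical3, Ptprz1 and Dock9 did not meet it. The exons had been chosen for large changes, so the minimum of 15 points could not remove any. The 3 samples of a genotype, the plating density that differed with genotype, and the absence of cell counts limit what the differences can be ascribed to. Genes with under 1 CPM in one genotype have folds of low precision.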
